A study of Homo sapiens with 6 samples.

Results

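The genes described here are the core machinery of apoptosis: BCL2-family proteins, caspases, inhibitor-of-apoptosis proteins and the receptors and adaptors that start the death signal. They were taken from a fixed list of 34 symbols, which was chosen with earlier results of these data known. Each symbol was matched to the probe sets of the array whose annotation gives that symbol alone. Of the 34, 31 had such a probe set (32 probe sets in all) out of 22411 genes on the array, and 28 were bright enough to be tested out of 15823. CFLAR and TNFRSF10C lie only on probe sets that carry several symbols, and no probe set named RIPK1, so these 3 have no value here. The list was labelled as lying outside the targets of the tumour suppressor p53, but p53 is known to induce at least PMAIP1 and APAF1, so the label is not strict.

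Expression was measured on 6 Affymetrix arrays with total RNA of U87 MG, an established human glioblastoma cell line grown in DMEM with serum and left untreated. In 3 of the samples the cells stably overexpressed GUCY1B3 (a beta subunit of the nitric oxide receptor soluble guanylate cyclase) from a pCDNA3.1D/V5-His-TOPO plasmid. The other 3 were controls of U87 MG itself. No vector-only line was named, so effects of the cyclase subunit, of the plasmid and of selection cannot be told apart. The labels do not say whether the stable cells were a clone or a pool, nor whether the replicates were separate cultures, so each p-value reflects array-to-array spread only, and that spread may be technical. All values are log2 expression values after RMA, and all differences are overexpression minus control on that scale.

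Apoptosis runs through a pair of converging routes. In the mitochondrial route, BH3-only proteins sense stress and neutralise the anti-apoptotic BCL2 proteins or activate the effectors BAX and BAK1, which open the outer mitochondrial membrane. Cytochrome c then leaves the mitochondrion and assembles with APAF1 and caspase-9 into the apoptosome, while DIABLO and HTRA2 release the caspases from XIAP. In the receptor route, ligands such as TRAIL bring FADD and caspase-8 to the receptor's death domain. Glioblastoma cells are known to resist both routes in part.

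The targeted gene was read first. GUCY1B3, listed under its current symbol GUCY1B1, read 8.10, 8.18 and 8.40 in overexpression against 7.45, 7.70 and 7.49 in the controls. It was thus higher on every overexpression array, by 0.68 (1.60-fold, limma, adjusted p = 0.00431, against 0.0785 with an ordinary equal-variance model). Control array 3 stood apart from the other controls. Its correlation over the 15823 tested genes (genes are no independent replicates) was 0.989 with control array 1 and 0.987 with control array 2, whereas control arrays 1 and 2 correlated at 0.995 and the overexpression arrays among themselves at 0.997. Its correlation with the overexpression arrays lay between 0.987 and 0.989. Results below are therefore given with and without that array where it matters. Of 9 glioma and glial markers listed for the identity of U87 MG, VIM read 12.04 to 12.19, CD44 10.35 to 10.63 and FN1 9.92 to 10.37. The astrocyte marker GFAP read only 5.60 to 5.89 and SOX2 5.22 to 5.39. The progenitor filament gene NES was the only 1 of the 9 to pass in limma, higher by 0.53 (adjusted p = 0.00125), and 0 were lower. EGFR (a difference of -0.14) and OLIG2 (0.16) did not pass in limma although their groups did not overlap. An ordinary equal-variance model called 2 of the 9, NES (adjusted p = 0.0266) and, as lower, EGFR (adjusted p = 0.0223). Of 17 markers of leukocytes, epithelium, endothelium, neurons and oligodendrocytes, 15 were measured and 3 of these, PTPRC, EPCAM and PECAM1, lay under the array median on all 6 arrays. Another 11 were bright enough to be tested, among them CD3E (5.20 to 5.43) and KRT8 (6.43 to 6.62), and without detection calls their presence cannot be judged. Of these 11, 0 passed in limma or in an ordinary equal-variance model, and 2, KRT18 (a difference of 0.19) and SYT1 (0.15), were higher at an unadjusted p under 0.05. CDKN2A, listed as deleted or mutated in U87 MG, read 5.14 to 5.29 and was also bright enough to be tested. Passing the brightness filter therefore does not show that a gene is expressed. The part of these markers in the results was not tested.

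The members of the list that passed the test were all higher in the overexpressing cells, and by small amounts. Of 28 tested members, 5 rose and 0 fell (limma, Benjamini-Hochberg adjusted p under 0.05 over all 15823 genes), against 6.38% of all tested genes called higher and 4.53% called lower. The 5 that rose make 17.9% of the members. They were the anti-apoptotic BCL2, cytochrome c (CYCS), the mitochondrial nuclease ENDOG, the initiator caspase CASP2 and the TRAIL decoy receptor TNFRSF10D, and their rises lay between 1.22-fold and 1.29-fold. At an unadjusted p under 0.05, 11 members were higher and 1 was lower, beside 14.5% and 10.5% of all tested genes. In 13 members all 3 overexpression arrays lay above all 3 controls, and in 1 member all lay below (17.1% and 12.2% of all tested genes). The difference lay above 0 in 20 of the 28, beside 59.1% of all tested genes. The median difference of the members was 0.11, beside 0.02 over all tested genes, and 0 of the 28 differed by more than 1.5-fold, as 242 of the 15823 did. With each array centred on its median BCL2 and CYCS no longer passed (adjusted p = 0.0515 and 0.0711), and with an ordinary equal-variance model in place of limma TNFRSF10D alone did (adjusted p = 0.0355, against 0.0784 to 0.155 for the other 4). More cells with a transcript and more of it per cell cannot be told apart in these bulk samples.

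**Figure D1:**
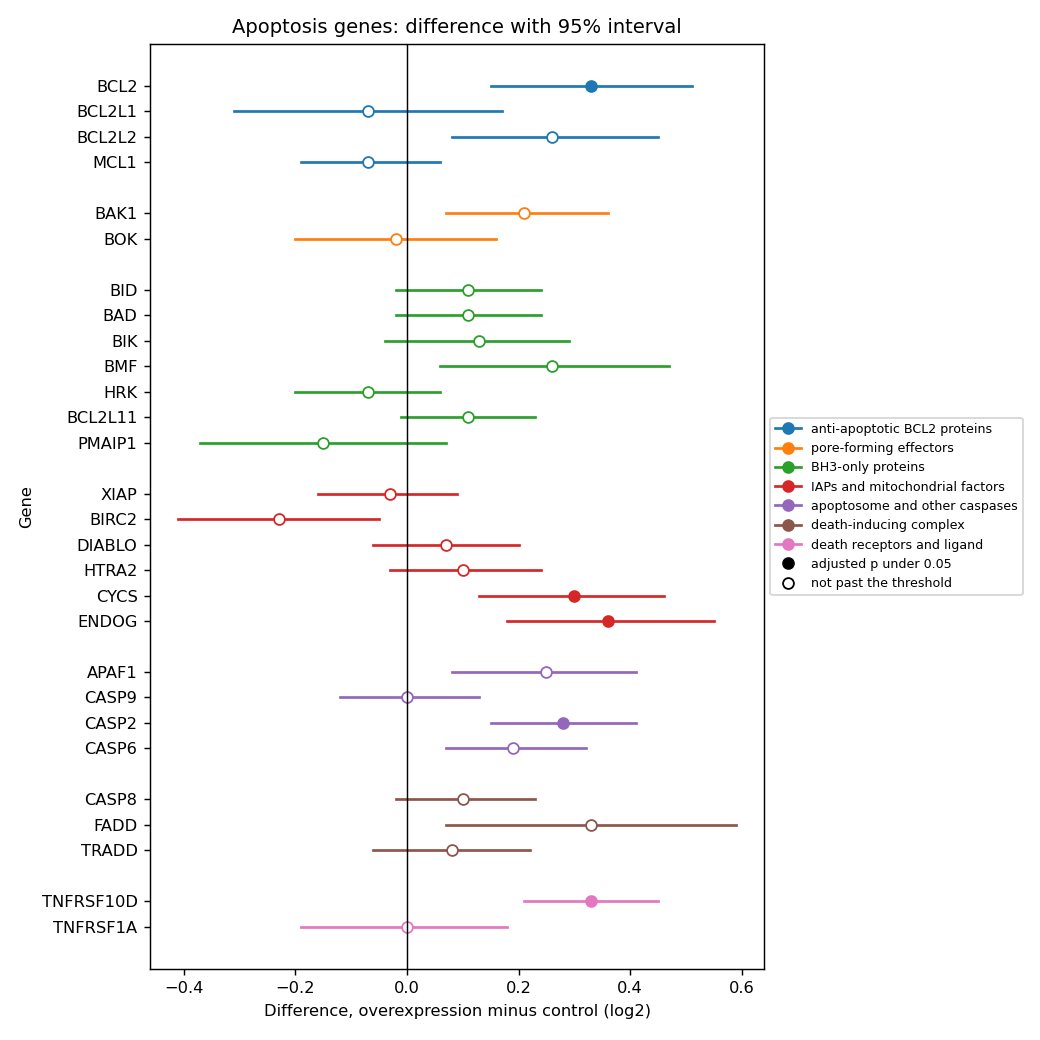
The difference between overexpression and control on the log2 scale is plotted for each of the 28 tested members, grouped by role, with its 95% interval from limma. Filled points, 5 in all, passed the adjusted threshold, and each of them lies to the right of 0, between 0.28 and 0.36.

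**Figure D2:**
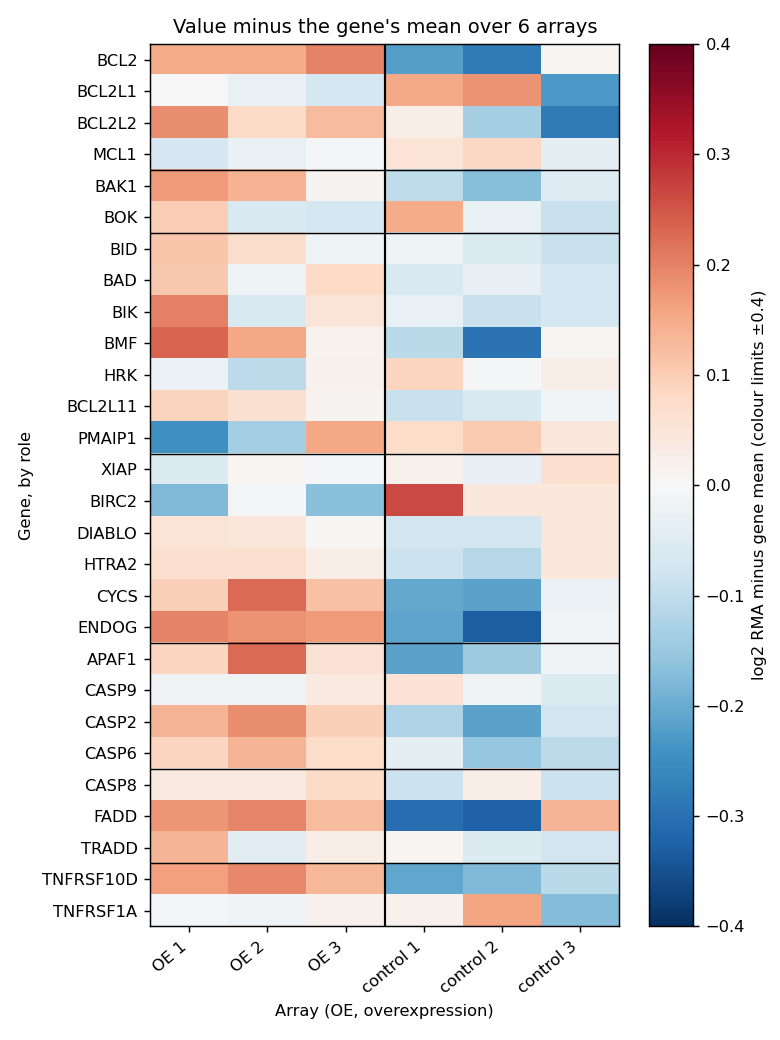
Each row is a tested member and each column an array, coloured by the value minus that gene's mean over the 6 arrays (log2). Control array 3 is nearer to the overexpression columns than control arrays 1 and 2 are for FADD, BCL2, ENDOG and CYCS, and lies below all other arrays for BCL2L1 and BCL2L2.

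Among the anti-apoptotic proteins, which hold the effectors in check, BCL2 was the member that rose. BCL2 read 6.92, 6.92 and 6.97 in overexpression and 6.55, 6.49 and 6.78 in the controls. The groups did not overlap, and the overexpression arrays lay much closer together than the controls. The group means of 6.94 ± 0.02 and 6.61 ± 0.15 (SD, n = 3 in each group) gave a rise of 0.33 (95% interval 0.15 to 0.51, 1.26-fold, adjusted p = 0.0310). Control array 3 lay 0.26 above the mean of the other controls, and without it the difference was 0.42 (adjusted p = 0.000783). Without any 1 of the other arrays the adjusted p lay between 0.0810 and 0.111, so the call was lost each time, although the difference stayed between 0.27 and 0.34.

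The other anti-apoptotic members did not pass. BCL2L2, which encodes BCL-w, had a difference of 0.26 (adjusted p = 0.0747), with no overlap between the groups. Read-through transcripts join BCL2L2 to its neighbour PABPN1, so its probe set may not measure BCL2L2 alone. BCL2L1, which encodes BCL-xL, read 8.17, 8.14 and 8.10 in overexpression and 8.32, 8.35 and 7.94 in the controls. Its overexpression values thus lay between control array 3 and the other controls. The difference was -0.07 with all arrays (95% interval -0.31 to 0.17, adjusted p = 0.770) and -0.20 without control array 3 (adjusted p = 0.0263), so its call rests on whether that array is used. MCL1, a short-lived protein of the same class, had a difference of -0.07 (95% interval -0.19 to 0.06). BCL2A1 was dim on all 6 arrays, 4.70 to 4.85, and was not tested.

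The effectors did not pass either. BAK1, which forms pores in the outer mitochondrial membrane, read 6.81, 6.78 and 6.65 in overexpression and 6.54, 6.47 and 6.59 in the controls. The groups did not overlap, but the highest control lay only slightly below the lowest overexpression array. Its group means of 6.75 ± 0.09 and 6.53 ± 0.06 (SD, n = 3 in each group) gave a difference of 0.21 (95% interval 0.07 to 0.36, adjusted p = 0.0699), and without control array 3 it passed with 0.24 (adjusted p = 0.0243). BOK, a related effector, had a difference of -0.02 (95% interval -0.20 to 0.16).

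**Figure D3:**
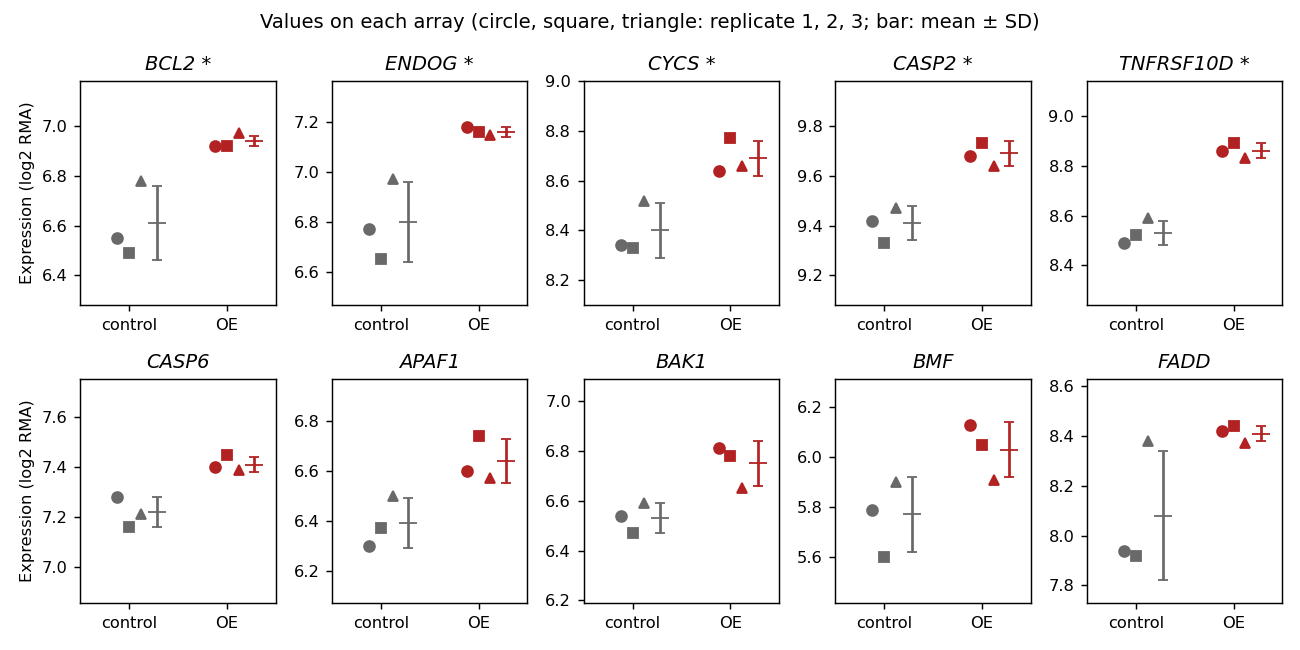
Log2 RMA values on each array are plotted for the 5 members that rose (marked *) and 5 further members, with circles, squares and triangles for replicates 1, 2 and 3 and bars for mean ± SD (n = 3). The vertical axes span 0.9 log2 units in every panel but start at different values, and in FADD control array 3 lies at 8.38, level with the overexpression arrays.

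Of the 7 BH3-only genes, whose products carry the death signal to the BCL2 proteins, 0 passed the threshold in limma in either direction. At an unadjusted p under 0.05, 1 was higher and 0 were lower, and an ordinary equal-variance model called 0 after adjustment. Over all tested genes the shares were 6.38% higher and 4.53% lower with adjustment and 14.5% and 10.5% without, so counts this low in 7 genes are near the background. BMF, which senses loss of cell attachment, had the smallest p. It read 6.13, 6.05 and 5.91 in overexpression and 5.79, 5.60 and 5.90 in the controls, with the lowest overexpression array just above control array 3. Means of 6.03 ± 0.11 and 5.77 ± 0.15 (SD, n = 3 in each group) made a difference of 0.26 (95% interval 0.06 to 0.47, adjusted p = 0.103). Without control array 3 it was 0.33 (adjusted p = 0.0162).

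BID, the link from caspase-8 to the mitochondrion, had a difference of 0.11, and so had BAD, which responds to survival signals, while that of BIK was 0.13. BCL2L11, which encodes BIM, read 6.14 ± 0.04 against 6.04 ± 0.04 (SD, n = 3 in each group) on its brighter probe set, a difference of 0.11 (adjusted p = 0.253), and its other probe set, dim on all arrays, gave 0.05. PMAIP1, which encodes NOXA and is known to be induced by p53, varied most among the overexpression arrays, at 7.57, 7.68 and 7.97, while its controls lay between 7.86 and 7.92. Its difference was -0.15 (95% interval -0.37 to 0.07, adjusted p = 0.403). HRK, a neuronal BH3-only gene, had a difference of -0.07.

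Among proteins that leave the mitochondrion during apoptosis, cytochrome c and ENDOG rose. ENDOG, a nuclease of the mitochondrion that can cut nuclear DNA after release, read 7.18, 7.16 and 7.15 in overexpression and 6.77, 6.65 and 6.97 in the controls. The groups did not overlap, and control array 3 was the nearest to overexpression. The group means of 7.16 ± 0.02 and 6.80 ± 0.16 (SD, n = 3 in each group) gave a rise of 0.36 (95% interval 0.18 to 0.55, 1.29-fold, adjusted p = 0.0245), the greatest among the members. Without control array 3 it was 0.45 (adjusted p = 0.000758), and without any 1 of the other arrays the adjusted p lay between 0.0546 and 0.102.

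CYCS, the cytochrome c that carries electrons in respiration and triggers the apoptosome, read 8.64, 8.77 and 8.66 in overexpression and 8.34, 8.33 and 8.52 in the controls. Every overexpression array lay above every control. Means of 8.69 ± 0.07 and 8.40 ± 0.11 (SD, n = 3 in each group) made a rise of 0.30 (95% interval 0.13 to 0.46, 1.23-fold, adjusted p = 0.0330). Without control array 3 it was 0.36 (adjusted p = 0.00290), and without any 1 of the other arrays the adjusted p lay between 0.0893 and 0.129. CYCS has many processed pseudogenes of near-identical sequence, so the assignment of its probe set to CYCS alone is uncertain.

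The IAP antagonists and the IAPs themselves did not pass. DIABLO, also called SMAC, had a difference of 0.07 (95% interval -0.06 to 0.20) and the serine protease HTRA2 one of 0.10 (95% interval -0.03 to 0.24). XIAP, the direct caspase inhibitor, had a difference of -0.03 (95% interval -0.16 to 0.09). BIRC2, the ubiquitin ligase cIAP1 that acts at the TNF receptor, was the member with the lowest difference. It read 7.69, 7.86 and 7.70 in overexpression and 8.13, 7.91 and 7.91 in the controls, so that all overexpression arrays lay below all controls. The difference was -0.23 (95% interval -0.41 to -0.05, adjusted p = 0.105) with all arrays and -0.27 without control array 3 (adjusted p = 0.0373).

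Among the caspases and their platform, CASP2 rose and a pair of others came close. CASP2, an initiator caspase activated by DNA damage and by centrosome defects, read 9.68, 9.73 and 9.64 in overexpression and 9.42, 9.33 and 9.47 in the controls. Both groups were tight and did not overlap. The group means of 9.69 ± 0.05 and 9.41 ± 0.07 (SD, n = 3 in each group) gave a rise of 0.28 (95% interval 0.15 to 0.41, 1.22-fold, adjusted p = 0.0193). Without control array 3 it was 0.31 (adjusted p = 0.00462), and without any 1 of the other arrays the adjusted p lay between 0.0552 and 0.0878, while the difference stayed between 0.24 and 0.30.

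CASP6, an executioner caspase, read 7.40, 7.45 and 7.39 against 7.28, 7.16 and 7.21, without overlap. Its group means of 7.41 ± 0.03 and 7.22 ± 0.06 (SD, n = 3 in each group) gave a difference of 0.19 (95% interval 0.07 to 0.32, adjusted p = 0.0613), and it was 0.19 (adjusted p = 0.0471) without control array 3. APAF1, the scaffold of the apoptosome, read 6.60, 6.74 and 6.57 against 6.30, 6.37 and 6.50, again without overlap. Its group means of 6.64 ± 0.09 and 6.39 ± 0.10 (SD, n = 3 in each group) gave a difference of 0.25 (95% interval 0.08 to 0.41, adjusted p = 0.0647), and without control array 3 it passed with 0.31 (adjusted p = 0.00925). CASP9, the caspase that APAF1 activates, had a mean of 7.26 in both groups (95% interval of the difference -0.12 to 0.13).

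In the receptor route the decoy receptor TNFRSF10D was the member that rose. TNFRSF10D binds TRAIL but has a truncated death domain, and it lies on chromosome 8 beside the other TRAIL receptors, which resemble it in sequence. It read 8.86, 8.89 and 8.83 in overexpression and 8.49, 8.52 and 8.59 in the controls. The gap between the groups was wider than the range within either of them. Means of 8.86 ± 0.03 and 8.53 ± 0.05 (SD, n = 3 in each group) made a rise of 0.33 (95% interval 0.21 to 0.45, 1.25-fold, adjusted p = 0.00804). It passed the threshold in each of the 14 alternative analyses, including all 6 that left out 1 array, in which the adjusted p lay between 0.00174 and 0.0462. It was the only called member to do so. The control 3 value lay 0.08 above the mean of the other controls, a smaller shift than in BCL2, ENDOG, CYCS or CASP2.

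The other receptor genes and adaptors did not pass. FADD, the adaptor that recruits caspase-8, read 8.42, 8.44 and 8.37 in overexpression and 7.94, 7.92 and 8.38 in the controls. Control array 3 thus lay within the range of the overexpression arrays, while the other controls lay well below. The group means of 8.41 ± 0.03 and 8.08 ± 0.26 (SD, n = 3 in each group) gave a difference of 0.33 (95% interval 0.07 to 0.59, adjusted p = 0.108), and without control array 3 it was 0.48 (adjusted p = 0.000383). CASP8, the initiator caspase of this route, had a difference of 0.10 (95% interval -0.02 to 0.23), and TRADD, the adaptor of the TNF receptor, one of 0.08. TNFRSF1A, that receptor, had a mean of 8.51 in both groups (95% interval -0.19 to 0.18). The TRAIL gene TNFSF10, at 3.79 to 4.01, and CASP10, at 4.66 to 4.83, were dim on all arrays and were not tested.

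The count of called members depended on single arrays in both directions, rising from 5 to 10 higher without control array 3 and dropping to 1 or 2 without any other. In 19 of the 28 members that array lay outside the range of the other controls on the side of the overexpression mean, beside 51.9% of all tested genes. Without it 10 members rose and 2 fell, beside 13.0% of all tested genes called higher and 9.97% called lower. The 5 members named above still rose, joined by FADD, BMF, APAF1, BAK1 and CASP6, and those that fell were BCL2L1 and BIRC2. Leaving out any other array left 1 member called, TNFRSF10D, except that BCL2L2 also passed without control array 1, with a difference of 0.34 (adjusted p = 0.0386). The median SD of the members was 0.043 among the overexpression arrays, 0.066 among the controls and 0.043 between control arrays 1 and 2. What set control array 3 apart was not tested.

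**Figure D4:**
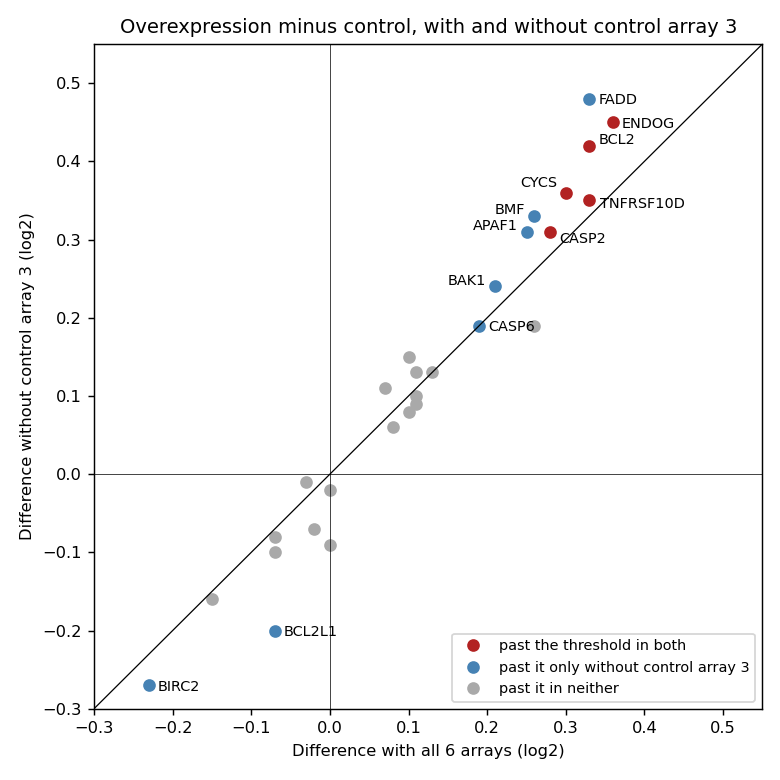
Each point is 1 of the 28 tested members, placed by its difference (overexpression minus control, log2) with all 6 arrays on the horizontal axis and without control array 3 on the vertical axis, and the diagonal marks equal values. FADD and BCL2L1 lie farthest from the diagonal, FADD at 0.33 and 0.48 and BCL2L1 at -0.07 and -0.20.

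Outside the 34, few genes of the pathway passed. Of 42 further apoptosis and necroptosis genes, 34 had a probe set of their own and 31 were tested, of which 1 rose and 2 fell (beside 6.38% of all tested genes called higher and 4.53% called lower, so that neither count stands out from the background). PEA15, a death-effector-domain protein that restrains FADD and caspase-8 and is abundant in astrocytes, read 11.08, 11.11 and 11.03 against 10.67, 10.70 and 10.82, a rise of 0.34 (1.27-fold, adjusted p = 0.00993). TNFRSF21, the death receptor DR6, read 8.09, 8.06 and 7.97 against 8.44, 8.37 and 8.26 and fell by 0.32 (adjusted p = 0.0188). MLKL, the executor of necroptosis, read 7.60, 7.72 and 7.83 against 8.09, 7.90 and 8.08 and fell by 0.31 (adjusted p = 0.0412). In all 3 the groups did not overlap. The call of PEA15 was lost without overexpression array 1 or 2 (adjusted p = 0.0535 and 0.0549), that of TNFRSF21 without any array but control array 3 (up to 0.0842), and that of MLKL without any array but control arrays 2 and 3 (up to 0.160).

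Other familiar genes of the further list did not pass with all arrays. BAX, the partner of BAK1 in pore formation, had a difference of -0.05 (95% interval -0.25 to 0.16; -0.15 without control array 3, adjusted p = 0.0814), FAS one of 0.00 (95% interval -0.14 to 0.14) and the TRAIL death receptor TNFRSF10B one of -0.01 (95% interval -0.16 to 0.13). TNFRSF10A, the other signalling TRAIL receptor, had a difference of 0.18 (adjusted p = 0.119). BIRC5, the mitotic IAP survivin, had one of 0.29 (adjusted p = 0.121), with control array 3 lying 0.31 above the mean of the other controls, and without that array it passed with 0.39 (adjusted p = 0.00641). Without it 3 of the 31 further genes were higher and 3 lower, beside 13.0% and 9.97% of all tested genes. Neither count stands out from that background. Like BIRC5, PERP (0.23, adjusted p = 0.0207) and, as lower, BNIP3 (-0.30, adjusted p = 0.0168) passed without that array but not with all arrays.

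BCL2, CYCS, ENDOG and CASP2 were picked because they passed the threshold with all arrays. The 250 bases before their starts are printed from the RefSeq promoter table (GRCh38.p14), so that their letters can be compared. Whether these genes are regulated together was not tested. The first start listed for each gene was used. The table has none for TNFRSF10D. Capitals mark 6 motifs, each searched on both strands. The letters TGACG are the core of the cAMP response element bound by CREB, which cGMP-dependent protein kinase is known to phosphorylate. The letters TGCGCA are the core of the element of NRF1, a factor known to drive nuclear genes for mitochondrial proteins. The others were the GC box with the letters GGGCGG, the E-box that MYC proteins bind with the letters CACGTG, the CCAAT box, and the TATA box with the letters TATAAA. BCL2 is shown from chr18:63319770-63320019 (minus strand), CYCS from chr7:25125261-25125510 (minus strand), ENDOG from chr9:128818250-128818499 (plus strand) and CASP2 from chr7:143288101-143288350 (plus strand).
BCL2: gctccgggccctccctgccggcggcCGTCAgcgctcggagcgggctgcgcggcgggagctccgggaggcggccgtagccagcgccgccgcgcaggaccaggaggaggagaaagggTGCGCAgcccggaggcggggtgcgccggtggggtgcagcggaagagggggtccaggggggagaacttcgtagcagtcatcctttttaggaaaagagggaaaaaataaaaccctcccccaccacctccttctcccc
CYCS: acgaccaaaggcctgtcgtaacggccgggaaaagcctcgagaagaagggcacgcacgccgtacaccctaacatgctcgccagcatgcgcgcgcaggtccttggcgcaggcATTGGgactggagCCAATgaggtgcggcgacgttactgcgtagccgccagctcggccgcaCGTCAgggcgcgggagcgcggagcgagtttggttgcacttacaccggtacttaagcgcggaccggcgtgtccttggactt
ENDOG: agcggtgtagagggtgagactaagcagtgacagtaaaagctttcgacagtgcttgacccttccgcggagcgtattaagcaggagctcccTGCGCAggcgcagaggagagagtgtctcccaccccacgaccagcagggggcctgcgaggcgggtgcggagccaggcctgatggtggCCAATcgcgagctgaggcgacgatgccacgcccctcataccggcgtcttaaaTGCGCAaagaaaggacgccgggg
CASP2: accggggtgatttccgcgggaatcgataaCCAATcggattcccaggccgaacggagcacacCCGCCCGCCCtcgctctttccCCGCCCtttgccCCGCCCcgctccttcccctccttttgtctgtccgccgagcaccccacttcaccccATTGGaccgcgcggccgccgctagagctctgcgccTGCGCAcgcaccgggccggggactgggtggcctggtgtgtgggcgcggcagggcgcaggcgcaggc

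None of the motifs, searched as exact letters, stood in all 4 promoters. TGCGCA stood in BCL2 (positions -135 to -130 from the start), in ENDOG at 2 places (-161 to -156 and -23 to -18) and in CASP2 (-66 to -61), and CCAAT or its reverse stood in CYCS, ENDOG and CASP2. The core TGACG stood, as its reverse, in BCL2 (-225 to -221) and in CYCS (-80 to -76), while the GC box stood in CASP2 but in none of the other 3. Of the tested members 23 had a promoter in the table. TGCGCA stood in 3 of these 23, which are the 3 named above, beside 7.05% of all 27305 promoters. TGACG stood in 9 of the 23 (21.7% of all promoters), the GC box in 16 (42.3%), CCAAT in 10 (33.0%), the TATA box in 1 (11.1%) and the E-box in 0 (6.49%). The median GC content of the 23 was 66.4%, beside 58.0% of all promoters. The motifs were chosen after the genes' values were seen, and a match of letters is not a bound site. Nor does a missing exact match show that a site is absent. CYCS, for example, holds tgcgcg, which differs from TGCGCA only in the last letter.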

How the data were processed

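Total RNA of 3 overexpression and 3 control samples was hybridised to 1-colour Affymetrix arrays. The authors deposited log2 values for 70523 features from RMA in Affymetrix Expression Console, per the labels and the submitters' processing notes. RMA includes quantile normalization, which forces the arrays to nearly the same distribution, so a change shared by most genes would be removed. For the software version, library files and array build the sources used here give nothing, and detection calls were not used here. The arrays' medians lay between 4.97 and 5.03. Precision is limited by the small number of arrays.

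Platform annotation named 23781 probe sets with 1 symbol, 1543 with several and 45199 features with none. Symbols were updated through the RefSeq gene table. Per gene the probe set with the highest mean was kept, and genes above the array median on at least 3 arrays were tested with limma 3.58.1 in R 4.3.3 (lmFit, eBayes, no covariate, Benjamini-Hochberg threshold 0.05, 4 residual degrees of freedom). Tables, promoters and plots used Python 3.11.15. The fit was tested on simulated data, in which it recovered 24.0% of 50 changes of 0.3 log2 units and 96.0% of 50 changes of 0.5. Of its 172 calls there, 6.98% were false. The simulated noise was independent and of equal spread in both groups, with no array set apart. The real data gave 1727 calls and a wider spread among the controls, so these rates may not carry over. Every member is named. By a rule, values on all arrays are given for members past the threshold and the 3 nearest misses. The same holds for the member with the smallest p in each remaining role group. Values of BCL2L1, BIRC2 and PMAIP1 (its controls as a range) were added after they were seen. So were the differences of BAX, FAS, TNFRSF10A, TNFRSF10B, BIRC5, PERP and BNIP3. The members and lists were chosen with earlier results of these data known. Alternatives changed the filter, normalization, variance model, probe set rule, pairing and arrays used.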

Additional observations from a re-analysis of the deposited data

How the results depend on the processing

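Over all genes, the ordinary equal-variance model called 246 higher and 170 lower, the fit with the replicate number as a block 589 and 439, and the fits that left out 1 array between 306 and 2053 higher and between 215 and 1577 lower. Members called higher numbered 3 with arrays centred on their medians, 1 under the ordinary model, 1 with the replicate block (in both, TNFRSF10D) and between 1 and 10 with 1 array left out, and members called lower between 0 and 2 with 1 array left out. Of the further apoptosis genes, the ordinary model called 0 higher and 0 lower, the replicate block 1 lower and the fit without the filter on dim probe sets 1 lower, and leaving out 1 array gave 0 to 3 higher and 0 to 3 lower. The median difference of the members was 0.08 with cyclic loess, and between 0.08 and 0.13 over the 14 alternatives. GUCY1B1 kept its difference of 0.68 but not its call under the ordinary model (adjusted p = 0.0785). Of 392 pairs of a member and an alternative, 354 kept their side of the threshold, 30 lost the call and 8 gained one. The signs of 4 members with differences near 0 (BCL2L1, BOK, CASP9 and TNFRSF1A) changed in at least 1 alternative, and 0 of the 5 called members changed sign. The fits with fewer arrays have fewer degrees of freedom, and what else moved the counts was not tested. The labels do not say that same-numbered arrays of the 2 groups belong together, so the numbers were not treated as pairs. Deviations from the group means correlated at 0.282, -0.0972 and -0.241 in same-numbered arrays. In differently numbered arrays the correlations lay between -0.392 and 0.336. With so few arrays these values cannot settle whether the samples were paired. The 95% intervals of the members had a median half-width of 0.14 on the log2 scale, which limits the differences that could be seen.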
